A study of Mus musculus with 401 samples.

Results

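At 4 months of age, 39 cumulus–oocyte complexes had RNA-seq libraries of both the oocyte and the cumulus cells that surrounded it, and the pair of libraries of each complex was compared here gene by gene and axis by axis. The complexes were those whose labels gave an age of 4 months in the second of 2 independent experiments and whose oocyte and cumulus libraries carried the same complex label. They made up 39 of the 127 complexes with both libraries in that experiment and 78 of the 401 libraries of the series. The mice were B6D2F1 (C57BL/6 x DBA/2) females on an ad libitum (AL) diet that had been injected for hyperovulation with equine chorionic gonadotropin or HyperOva, without a label saying which agent a mouse received. Complexes were dissected from fully grown follicles in medium with IBMX, a phosphodiesterase inhibitor, so every group of the study shared that agent. The 88 other complexes of the same experiment came from the same strain and diet: 24 at 2 months, 16 at 9 months and 16 at 14 months after hyperovulation, and 32 at 2 months without it.

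The complexes came from 8 mouse labels. Mice 4mo5 and 4mo25 gave 8 complexes each, 4mo3 gave 4 and 4mo4 gave 3, all with complex labels that began with B1, and mice 4mo26 to 4mo29 gave 4 each with labels that began with B2. What the prefix stands for is not given in the sources used here. Complexes of one mouse shared that mouse, so relations were computed after centring both cells on the mouse label, with resamples of the pairing within each mouse, and again without centring. A further cumulus library, of mouse 4mo4, had no oocyte library and entered no comparison.

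Cumulus cells are the granulosa cells that enclose the oocyte in an antral follicle, joined to it by transzonal projections that end in gap junctions. They pass pyruvate, amino acids, sterols and cGMP inwards, and the cGMP helps to hold the oocyte in meiotic arrest. The oocyte in turn secretes GDF9 and BMP15, members of the TGF-beta family that act through receptors on cumulus cells and are known to favour glycolysis, cholesterol synthesis, cumulus expansion and the cumulus over the mural granulosa phenotype.

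Oocyte libraries held 1238441 to 2409422 counts (median 2047067) and cumulus libraries 593001 to 1075625 (median 851316), with 18217 to 20281 and 18545 to 20354 genes detected. The markers matched the labels. The 10 cumulus markers summed to 3488 to 17034 CPM (counts scaled to library size) in cumulus libraries and to 47.0 to 112.6 CPM in oocyte libraries. The 13 oocyte markers summed to 20401 to 30997 CPM in oocytes and to 0 to 38.7 CPM in cumulus libraries, where Bmp15, Oosp1 and Nobox had no count and Tle6, at up to 35.9 CPM, made most of the sum. No 2 of the 78 libraries were identical. The oocytes of 4 complexes, B1C04, B1D04, B2B07 and B2E07, stood apart from the other 35 on the first oocyte axis, with 0.214% to 0.425% mitochondrially encoded RNA against 0.371% to 0.665%, and with 0.316% to 0.342% ribosomal protein RNA against 0.380% to 0.571%.

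Whether the level of a gene in an oocyte moved with the level of the same gene in its own cumulus cells was asked for 13102 genes detected in at least 20 libraries of each cell type. Only 4 genes passed, and in all of them the oocyte level was higher where the cumulus level was higher: Pde7b, a phosphodiesterase that breaks down cAMP, C130074G19Rik, a gene known by its clone name, Grem1, a secreted antagonist of bone morphogenetic proteins, and Uggt1, which returns misfolded glycoproteins to the folding cycle of the endoplasmic reticulum. The call was made with a linear model of oocyte log2 CPM on cumulus log2 CPM with the mouse label as a term, at a Benjamini-Hochberg adjusted p under 0.05, and it covered 0.0305% of the genes tested. At an unadjusted p under 0.05 the relation held for 899 genes (6.86%), 565 positive and 334 negative. The median partial correlation over all genes was 0.011, with a 5th percentile of −0.30 and a 95th of 0.34.

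Pde7b lies on the minus strand of chromosome 10, from 20398004 to 20725078 (GRCm38). Its level ran from 0 through a median of 2.01 to 46.2 CPM in oocytes and from 0 through 25.9 to 344 CPM in cumulus cells. The 5 oocytes with the most Pde7b, at 24.5 to 46.2 CPM, all came from complexes whose cumulus cells held 156 to 223 CPM. After centring on the mouse, Pearson's r was 0.83 (permutation p = 1e-05, the smallest that 100000 resamples can give) and Spearman's rho 0.79, with an adjusted p of 4.0e-05 from the linear model. The relation was positive in 8 of 8 mice, with r = 0.92 among the complexes labelled B1 and 0.70 among those labelled B2. Oocytes held on average 10.8% of the cumulus level. The annotated genes Gm17229 and Gm17230 overlap Pde7b, and whether the counting used strand is not given in the sources used here.

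C130074G19Rik (chromosome 1, 184871926 to 184883218, minus strand) ran from 1.66 through 8.78 to 78.6 CPM in oocytes and from 19.3 through 43.6 to 179 CPM in cumulus cells. Its r was 0.81 (permutation p = 1e-05, linear model adjusted p = 0.00015), positive in 7 of 8 mice. Grem1 (chromosome 2, 113746164 to 113758646, minus strand) was mostly a cumulus transcript, at 4.46 to 725 CPM (median 397) there and 0 to 57.8 CPM (median 10.9) in oocytes, so that oocytes held 5.03% of the cumulus level. Its r was 0.72 (permutation p = 1e-05, adjusted p = 0.018) with the pairs of 7 of 8 mice positive, and on ranks its adjusted p was 0.11. Uggt1 (chromosome 1, 36140027 to 36244720, minus strand) varied least, from 49.9 to 118 CPM in oocytes and 103 to 259 CPM in cumulus cells, with r = 0.69 (permutation p = 0.00013, adjusted p = 0.043) and 8 of 8 mice positive. Without the 4 oocytes that stood apart its r was 0.68 and its call was lost (adjusted p = 0.13), while the other 3 genes kept their calls. With 1 mouse left out at a time, Pde7b kept its call without any 1 of the 8 mice (r of 0.79 to 0.85, adjusted p of 0.042 or less) and C130074G19Rik without any but 4mo25 (0.76 to 0.84 over the 8 mice, adjusted p = 0.055 without 4mo25). Grem1 lost its call without 4mo25, 4mo26, 4mo27, 4mo28 or 4mo29 (0.65 to 0.72, adjusted p of 0.053 to 0.31), and Uggt1 without any 1 of the 8 (0.63 to 0.75, adjusted p of 0.053 to 0.41).

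**Figure D1:**
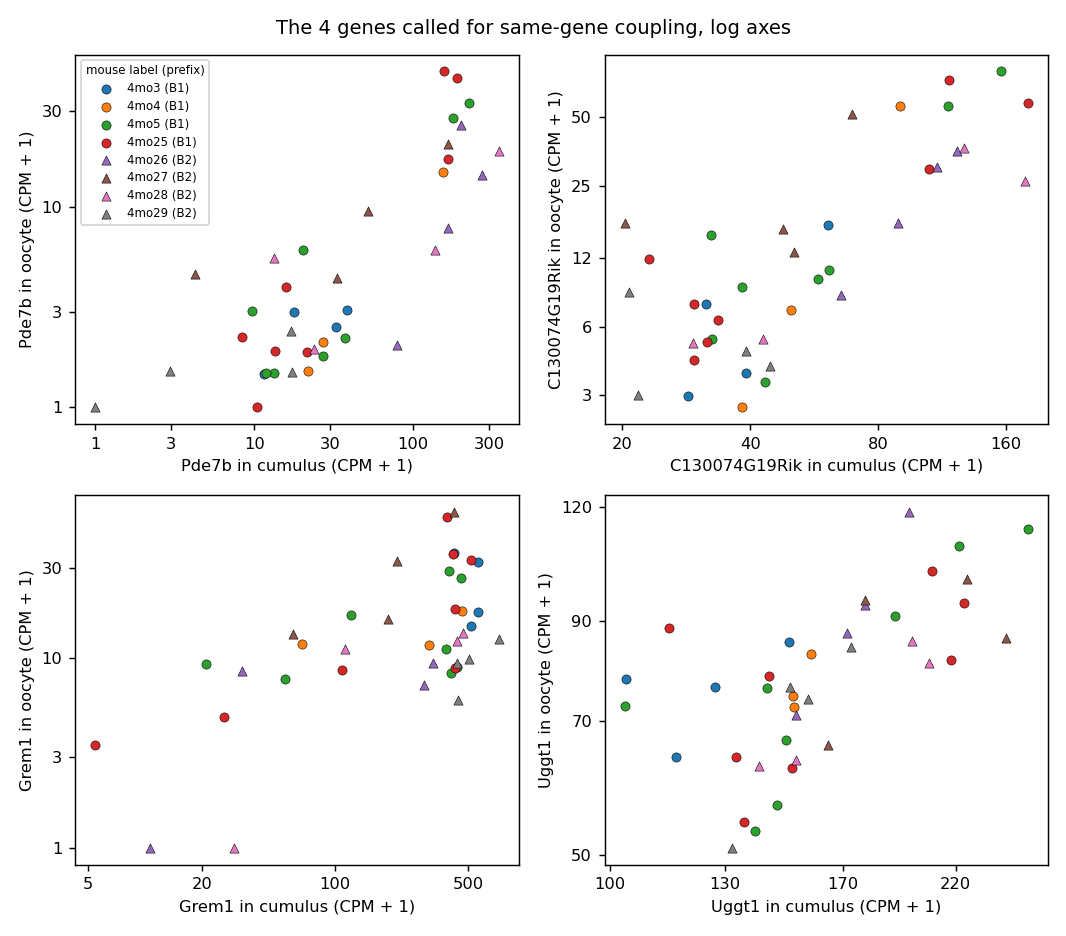
Level of 4 genes in the oocyte (vertical axis, CPM + 1, log scale) against the level in the cumulus cells of the same complex (horizontal axis, CPM + 1, log scale), 1 point per complex for 39 complexes, with colour for the mouse label and circles or triangles for the prefix B1 or B2. The highest oocyte levels of Pde7b lie in complexes with over 100 CPM in cumulus cells, and r after centring on the mouse was 0.83 for Pde7b, 0.81 for C130074G19Rik, 0.72 for Grem1 and 0.69 for Uggt1.

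Without the mouse term 15 genes passed (0.114%, and 7.43% at an unadjusted p under 0.05), again all positive, and they included those 4. Among the added genes were Inhbb and Inhba, which encode the beta subunits of inhibins and activins, Amh, the anti-Müllerian hormone of granulosa cells, Synm, an intermediate filament protein, Gnai2, an inhibitory G protein subunit, and Tent5c, a poly(A) polymerase. The partial r with the mouse term was 0.63 for Inhbb, 0.62 for Inhba, 0.59 for Amh and 0.66 for Synm, with adjusted p of 0.16, 0.18, 0.24 and 0.076. For Gnai2, Tvp23b, Srp54a, Srp54b and Srp54c the partial r fell to between 0.14 and 0.40. The 3 Srp54 genes are near-identical copies, and 80.8% to 87.2% of their values were not whole numbers, as for reads split between copies.

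The same-gene relation for Amh, Inhbb and Inhba rested on low oocyte levels. Their mean oocyte level was 0.53%, 0.17% and 0.18% of the cumulus level. Other cumulus markers lay near that range: Inha (0.34%), Fshr (0.71%), Npr2 (0.13%), Amhr2 (0.48%) and Kctd14 (0.63%). The partial r of these markers was −0.09, 0.28, 0.06, 0.05 and 0.44. With the summed cumulus markers in the oocyte library and the summed oocyte markers in the cumulus library as covariates, 2 genes passed. Pde7b kept its call there (r = 0.72, adjusted p = 0.048) and Inhbb gained one (r = 0.73, adjusted p = 0.048), whereas C130074G19Rik (r = 0.67, adjusted p = 0.11), Grem1 (0.54, 0.49) and Uggt1 (0.61, 0.32) did not.

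Of 19 gene lists, from oocyte growth factors and their receptors through glycolysis, cholesterol synthesis, stress responses and ribosomal proteins to core histones, none held a gene that passed the same-gene test. Only 0.0305% of all genes tested passed, so the absence of calls does not set these lists apart from other genes. The list of AMH, inhibin and follistatin genes had a median partial r of 0.41 over the 8 members tested, against 0.011 over all genes, and 0.38 over the 88 other complexes. Medians of the other lists lay between −0.13, for immediate early genes, and 0.12, for mitochondrially encoded genes. Members with the largest partial r in their lists were Gpi1 of glycolysis at 0.52 (adjusted p = 0.39), Rpl3 of the ribosome at 0.51 (0.41), Pde3a, the phosphodiesterase that breaks down cAMP in the oocyte, at −0.55 (0.35), and Ddit3 of the stress response at −0.49 (0.45), none of which passed.

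Whole profiles carried little of the pairing. The mean correlation of an oocyte with its own cumulus cells, over the 13102 genes scaled to equal variance after centring on the mouse, was 0.012, and with the cumulus cells of other complexes of the same mouse −0.0027. The difference of 0.014 was small but larger than in nearly all random pairings within mice (permutation p = 0.026), and it was in that direction in 27 of 39 complexes. Without mouse 4mo25 the difference was 0.012 (p = 0.12). Among the 88 other complexes it was −0.0015 (p = 0.64), with 44 of 88 higher for their own cumulus cells.

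The 88 other complexes were then used for the same-gene test, since they had no part in the 4-month calls. All 4 genes had a positive partial r at an unadjusted p under 0.05 there, which 3.73% of all genes reached, with r of 0.66 for Pde7b, 0.59 for C130074G19Rik, 0.55 for Grem1 and 0.44 for Uggt1 (adjusted p = 0.088). In those complexes 23 genes passed (0.176%, and 7.52% at an unadjusted p under 0.05), 19 of them positive, 3 of which were among the 4. All 23 had the same sign at 4 months and 14 had an unadjusted p under 0.05. By group, the partial r of Pde7b was 0.59 at 2 months, 0.48 at 9 months, 0.03 at 14 months and 0.75 at 2 months without hyperovulation. In the same order, that of Grem1 was 0.44, 0.56, 0.25 and 0.65, that of C130074G19Rik 0.72, 0.42, −0.007 and 0.72, and that of Uggt1 0.49, 0.54, 0.24 and 0.48. For all 4 genes the value at 14 months, over 16 complexes, was the lowest.

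Axes of variation were then compared. Principal component analysis of log10(RPKM + 1), run for each cell type on its own, gave oocyte axes that held 8.5%, 5.0% and 3.6% of the variance and cumulus axes that held 10.8%, 5.6% and 4.1%. The sign of an axis is arbitrary. Oocyte PC1 separated the 4 oocytes described above, and it had high weights on Lars2 and Mir6236 and low ones on Il6. Oocyte PC2 ran from Slc39a8, a zinc transporter, Grem1, Tox2 and Il6 at its negative end to C130074G19Rik, Pde7b and Lcp1, an actin-bundling protein, at its positive end. Cumulus PC1 ran from Ccn2 and Ccn1, matricellular proteins of the CCN family, Cited1 and Amh at its negative end to Inhbb, Inhba, Grem1, Cox4i2 and Slc16a3, a lactate exporter, at its positive end. These genes describe the axes that they helped to set and are not tested results.

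Of the 9 relations between 3 oocyte and 3 cumulus axes, 4 passed after centring on the mouse label. By far the strongest was oocyte PC2 with cumulus PC1, at r = −0.80 and rho = −0.78 (permutation p = 1e-05 each, adjusted p = 9e-05 over the 9), and r = −0.75 without the 2 complexes farthest from the median on the oocyte axis. Oocytes with high PC2 scores thus came from complexes whose cumulus cells had low PC1 scores. The others were oocyte PC2 with cumulus PC2 (r = −0.52, rho = −0.60, adjusted p = 0.0038), oocyte PC1 with cumulus PC3 (r = −0.46, rho = −0.51, adjusted p = 0.015) and oocyte PC2 with cumulus PC3 (r = 0.41, rho = 0.41, adjusted p = 0.033). Without the 2 farthest complexes these were −0.60, −0.30 and 0.43. Without the 4 oocytes that stood apart, oocyte PC1 with cumulus PC3 was −0.35 (adjusted p = 0.21) and oocyte PC2 with cumulus PC3 0.37 (adjusted p = 0.071), so neither passed. Oocyte PC1 with cumulus PC3 also lost its call without mouse 4mo5 (−0.25, adjusted p = 0.39) and on TMM-normalized log2 CPM (−0.31, adjusted p = 0.064). Oocyte PC2 with cumulus PC3 lost it without 4mo3, 4mo5, 4mo26 or 4mo27 (0.33 to 0.39, adjusted p of 0.056 to 0.14), on TMM-normalized log2 CPM (0.35, adjusted p = 0.11) and with a pseudocount of 0.1 (0.37, adjusted p = 0.088).

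Without centring 3 relations passed. Oocyte PC2 with cumulus PC1 (r = −0.72, rho = −0.59, adjusted p = 9e-05) and with cumulus PC3 (r = 0.40, adjusted p = 0.037) stayed, and oocyte PC3 with cumulus PC2 joined them (r = 0.54, adjusted p = 0.0016) where the centred value was 0.29 (adjusted p = 0.11). Oocyte PC2 with cumulus PC2 fell to −0.10. Oocyte PC1 with cumulus PC3 changed sign, to 0.15 (adjusted p = 0.53), so its direction depended on whether complexes were compared within a mouse or over all mice.

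**Figure D2:**
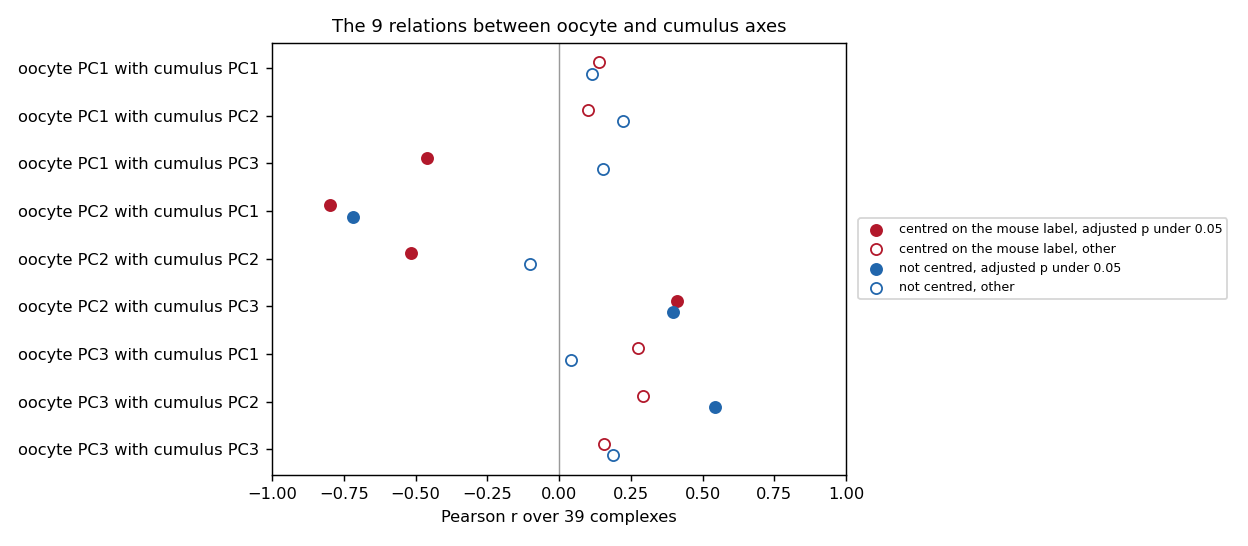
Pearson r between oocyte and cumulus scores over 39 complexes (horizontal axis) for each of 9 relations (rows), in red after centring on the mouse label and in blue without it, filled where the adjusted p was under 0.05. Oocyte PC2 with cumulus PC1 has the largest size in both, −0.80 and −0.72, and oocyte PC1 with cumulus PC3 lies on opposite sides of 0, at −0.46 and 0.15.

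Between mice the picture differed. Over the 8 mouse means, oocyte PC1 with cumulus PC3 had r = 0.92 (exact permutation p = 0.0013, adjusted p = 0.012 over 9) and oocyte PC3 with cumulus PC2 had r = 0.87 (exact permutation p = 0.0099, adjusted p = 0.045). The highest mouse means on oocyte PC1 were 5.17 in 4mo28, 3.10 in 4mo29 and 0.96 in 4mo5. Those were the mice of the oocytes that stood apart on that axis, and no relation between means is given here without those oocytes. For oocyte PC2 with cumulus PC1 the r between means was −0.43 (exact permutation p = 0.28). All 4 mice labelled B2 had positive mean scores on cumulus PC2, 5.18 to 8.69, and all 4 labelled B1 had negative ones, −6.86 to −3.20, so mouse and prefix cannot be told apart on that axis. Leaving out 1 mouse left 0 to 2 of the 9 relations between means, with 0 when 4mo5 was left out.

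The relation of oocyte PC2 with cumulus PC1 was negative in each of the 8 mice, with r from −0.13 in 4mo3 to −0.96 in 4mo27. Among complexes labelled B1 it was −0.85 (n = 23, permutation p = 1e-05) and among those labelled B2 −0.72 (n = 16, permutation p = 0.0033), a difference of −0.13 (exact permutation of the prefix over 8 mice, p = 0.37). Leaving out 1 mouse at a time gave −0.83 to −0.74, and without the 4 oocytes that stood apart r was −0.80. When oocyte axes were drawn from the 12800 genes with a higher mean in oocytes than in cumulus cells, the corresponding axis had r = 0.98 with oocyte PC2 and −0.73 with cumulus PC1.

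Complexes were unevenly spread along cumulus PC1. Of the 39, 16 lay below 0, down to −20.6, and 23 lay above 0, up to 11.1, with the widest empty stretch from −1.44 to 3.77 and the next widest nearly as wide (5.21 and 5.01). Within the lower 16 the centred r was −0.66 (permutation p = 0.033), and −0.38 without centring (p = 0.15). Within the upper 23 it was −0.04 (p = 0.88).

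At the negative end of oocyte PC2, the oocyte of complex B1C10 (PC2 score −6.61) held 3480 CPM of Gdf9, 2.99 CPM of Pde7b and 11 CPM of C130074G19Rik, and its cumulus cells (PC1 score 4.99) held 1320 CPM of Inhba, 384 CPM of Grem1 and 268 CPM of Amh. At the positive end, the oocyte of complex B1B04 (7.40) held 5824 CPM of Gdf9, 26.6 CPM of Pde7b and 78.6 CPM of C130074G19Rik, with cumulus cells (−15.0) that held 8.18 CPM of Inhba, 19.9 CPM of Grem1 and 1093 CPM of Amh. The complex next to it in rank, B1A10 of another mouse, was alike, with 5751 CPM of Gdf9 and 42.9 CPM of Pde7b in the oocyte and 2.23 CPM of Inhba and 489 CPM of Amh in the cumulus cells.

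**Figure D3:**
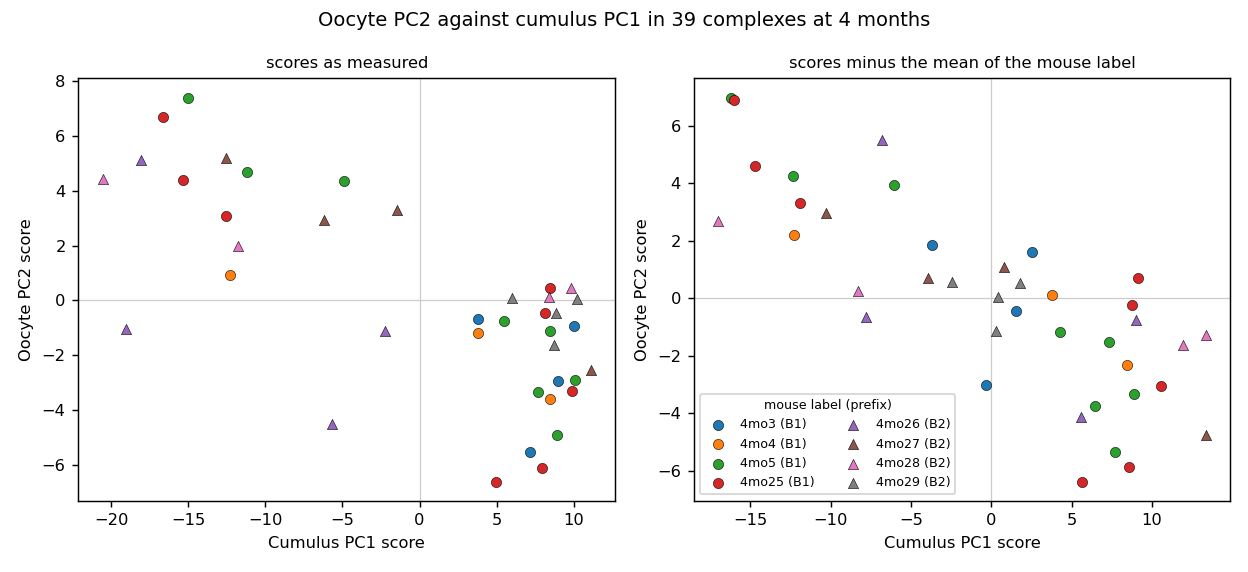
Oocyte PC2 score (vertical axis) against cumulus PC1 score (horizontal axis) in 39 complexes, as measured (left) and after subtracting the mean of each mouse label (right), with colour for the mouse and circles or triangles for the prefix B1 or B2. Complexes with cumulus scores below −10 mostly have oocyte scores above 0, and r is −0.72 on the left and −0.80 on the right.

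Broad measures of a library moved with the axes. Oocyte PC1 had r = −0.95 with the share of ribosomal protein RNA, −0.73 with the histone share and −0.69 with the mitochondrial share. Cumulus PC1 had r = −0.90 with the share of ribosomal protein RNA, 0.94 with the summed cumulus markers, which include Inhbb and Inhba, and 0.83 with the summed oocyte markers in cumulus libraries, of which Tle6 moved most with the axis (r = 0.87). Oocyte PC2 had r = 0.90 with the summed oocyte markers, 0.45 with the mitochondrial share and −0.14 with the summed cumulus markers in the oocyte library (permutation p = 0.51). Their part in the relation between the axes was not tested. None of 5 measures, namely total counts, genes detected and the shares of mitochondrial, ribosomal protein and histone RNA, passed between an oocyte and its cumulus cells by r (total counts −0.44, adjusted p = 0.086, mitochondrial share 0.32, adjusted p = 0.23). By rho, total counts did (−0.46, adjusted p = 0.024).

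The oocyte genes that followed cumulus PC1 were found with edgeR's quasi-likelihood test on the oocyte counts, with the mouse label as a term. Of 22384 genes, 112 were higher (0.5%) and 354 lower (1.58%) as the cumulus score rose, 2.08% in all. The scores came from other libraries than the counts. Values are log2 changes per SD of the score with their SE, and adjusted p are Benjamini-Hochberg values over all genes of the fit. The largest falls among genes of at least 8 CPM were Pde7b (−1.79 ± 0.14, adjusted p = 3.6e-11), C130074G19Rik (−1.34 ± 0.12), Lcp1 (−0.50 ± 0.06), Crebrf, a regulator of CREB3 (−0.50 ± 0.09), and Abi2, an adaptor of actin assembly (−0.49 ± 0.09). The largest rises were Slc39a8 (1.20 ± 0.32, adjusted p = 0.035, 0 to 188 CPM), Grem1 (0.69 ± 0.16), Efna1, an ephrin ligand (0.33 ± 0.07), Ripor1 (0.28 ± 0.07) and Cuta (0.25 ± 0.07).

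Growth factor genes of the oocyte were among them with small changes. Gdf9 fell by 0.15 ± 0.03 (adjusted p = 0.0011) and Bmp15 by 0.12 ± 0.03 (0.0065), while Fgf8, which acts with them on cumulus glycolysis, rose by 0.18 ± 0.04 (0.016), 3 of 6 measured members of the list. Of the integrated and endoplasmic reticulum stress list, 3 of 20 were lower, Atf4 (−0.26 ± 0.05), its target Chac1 (−0.48 ± 0.12) and the chaperone Calr (−0.15 ± 0.03), and of the heat shock list 2 of 14, the factor Hsf2 (−0.51 ± 0.10) and the chaperone Hsph1 (−0.20 ± 0.04). Impdh2, which makes guanine nucleotides, was lower (−0.82 ± 0.18), as was Myo10, a motor of filopodia (−0.23 ± 0.05), and Smad1 (0.25 ± 0.06) and Jund (0.46 ± 0.12) were higher. From the AMH, inhibin and follistatin list Inhba (1.11 ± 0.22) and Inhbb (0.78 ± 0.17) rose and Amh (−0.97 ± 0.23) and Igfbp5 (−0.74 ± 0.13) fell in oocytes. Inhba, Inhbb and Amh had the same direction in the cumulus cells, where they helped to set PC1, and their mean oocyte levels were 2.77, 5.35 and 1.25 CPM. No gene of the lists of steroid synthesis (14 tested), antioxidants (19), glycolysis (17), cholesterol synthesis (23), DNA replication (24), the circadian clock (15), mitochondrial RNA (31), ribosomal proteins (89) or core histones (55) passed in oocytes. Of all oocyte genes 2.08% passed, a share at which a short list often holds none. The count depended on the mice with most complexes, with 118 genes without 4mo5 and 123 without 4mo25, and it was 736 without the 4 oocytes that stood apart.

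Far more cumulus genes followed the oocyte. Along oocyte PC2, 1494 of 23301 cumulus genes were higher (6.41%) and 1265 lower (5.43%), 11.8% in all by the same edgeR test, and 1507 without 4mo5. Highest with the oocyte score were Agtr2, an angiotensin II receptor (2.92 ± 0.30 log2 per SD, not detected in most libraries and up to 116 CPM), the noncoding RNA Gm45889 (2.37 ± 0.30), Cited1, a transcriptional coactivator (2.04 ± 0.22), Ccn2 (1.92 ± 0.26, 0 to 671 CPM) and Aard (1.82 ± 0.20). Lowest were Inhba (−2.25 ± 0.34, 2.23 to 3909 CPM), Inhbb (−1.94 ± 0.37), Tns4, a focal adhesion protein (−1.88 ± 0.19), Slfn4 (−1.51 ± 0.21) and Nlrc5, an activator of MHC class I genes (−1.50 ± 0.21). In a pool of cells, fewer cells of a type and less RNA per cell cannot be told apart.

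Metabolic genes of the cumulus cells moved together along oocyte PC2. Of 17 glycolysis genes 15 were lower and 1, Ldhb (0.40 ± 0.06), was higher, with a list median of −0.45 against 0.0001 over all genes. Among them were Pfkp (−0.67 ± 0.09), a phosphofructokinase, Eno1 (−0.64 ± 0.11), the glucose transporter gene Slc2a1 (−0.57 ± 0.10), Aldoa (−0.55 ± 0.09) and Ldha (−0.53 ± 0.10). Of 23 genes of cholesterol synthesis and uptake 14 were lower and none higher (median −0.37), among them the mevalonate kinase gene Mvk (−0.58 ± 0.11), Hmgcs1 (−0.49 ± 0.13), Fdft1 (−0.45 ± 0.09) and the squalene epoxidase gene Sqle (−0.39 ± 0.10). Of 16 genes of steroid synthesis and gonadotropin response 5 were lower, including the aromatase gene Cyp19a1 (−0.76 ± 0.21), Hsd17b1 (−0.51 ± 0.08) and their regulator Nr5a1 (−0.42 ± 0.06), and Prlr was higher (0.36 ± 0.12).

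From the AMH, inhibin and follistatin list Amh (1.40 ± 0.21), Igfbp5 (1.0 ± 0.26) and the AMH receptor gene Amhr2 (0.38 ± 0.06) were higher, and Inhba, Inhbb, Fst (−0.35 ± 0.04), which binds activin, and Inha (−0.21 ± 0.04) were lower. Over all cumulus genes tested, 6.41% were higher and 5.43% lower. With edgeR's filterByExpr, which drops genes with low counts, 1461 of 11532 were higher and 1256 lower. Whether the counts of the lists that follow exceed these shares was not tested. Of 16 genes of meiotic arrest 2 were higher and 2 lower. Among them Nppc, which encodes the natriuretic peptide made mainly by mural granulosa cells, was lower (−0.65 ± 0.15) and Npr1 higher (0.98 ± 0.26). In the Kit pair 1 of 2 genes was lower. Of 10 genes of expansion and EGF-like ligands, Egfr (−0.75 ± 0.10) and the hyaluronan synthase gene Has2 (−0.94 ± 0.23) were lower. Receptors for oocyte factors included Fgfr2 (−0.89 ± 0.14) and Acvr1 (−0.22 ± 0.07), 2 of 18, or near the 11.8% of all cumulus genes called, and the junction list Cdh2 (−0.48 ± 0.09) and 2 of 9 others. Of 26 immediate early genes 12 were higher and none lower (median 0.21), led by Ccn2, Ccn1 (1.12 ± 0.17) and Myc (1.09 ± 0.12), and 60 of 88 ribosomal protein genes were higher and none lower (median 0.16), none by more than 0.36. Smaller numbers rose among heat shock genes (4 of 14, led by the mitochondrial chaperonin gene Hspd1 at 0.19 ± 0.04) and stress response genes (5 of 20, including Asns at 0.43 ± 0.10 and Psat1 at 0.45 ± 0.10), and of 20 antioxidant genes 3 were higher, such as Txnrd2 (0.43 ± 0.07), and 4 lower, such as Hmox1 (−0.56 ± 0.11). Core histones (0 of 54) and DNA replication (1 of 24, Mki67 at −0.15 ± 0.05) moved little. For the clock the count (2 of 15) was near the 11.8% of all cumulus genes called.

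No gene passed on the remaining axes tested. Of the 22384 oocyte genes none followed cumulus PC2 (1751, or 7.82%, at an unadjusted p under 0.05, and 50 adjusted by DESeq2), and of the 23301 cumulus genes none followed oocyte PC1 (1234, or 5.3%, unadjusted, and 1 adjusted by DESeq2).

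Named oocyte factors were compared with named cumulus genes in 24 pairs of a ligand with its receptor or of a factor with a known target, and 8 passed after centring on the mouse. The cumulus genes of the 8 pairs were all called along oocyte PC2, as were 11.8% of all cumulus genes. That axis had r = 0.90 with the summed oocyte markers, which include Gdf9 and Bmp15, so the pairs are not separate from the axis relation. The share that passes among other pairs of genes was not computed. Gdf9 ran from 3480 through a median of 4756 to 5972 CPM in oocytes (mean 4758 ± 645, SD, n = 39) and Bmp15 from 3433 through 4520 to 5338 CPM. The range of their cumulus partners was much wider, with Amh at 1.60 to 1167 CPM (median 87.7), Inhba at 2.23 to 3909 CPM (median 1628) and Fst at 395 to 1342 CPM (median 910). Amh was higher where the oocyte held more Gdf9 (r = 0.73, rho = 0.73) or Bmp15 (r = 0.76, rho = 0.77), and Inhba (r = −0.72, rho = −0.71) and Fst (r = −0.73, rho = −0.76) were lower where it held more Gdf9, each with a permutation p of 1e-05 (adjusted p = 6e-05 over the 24). Without the 2 complexes farthest from the median these were 0.75, 0.82, −0.72 and −0.76.

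Of 6 pairs with known targets in metabolism and expansion, 4 passed, with the target lower where the factor was higher. Bmp15 with Pfkp had r = −0.63 (adjusted p = 0.00062), Gdf9 with Has2 −0.63 (0.00068), at a median of 2.39 CPM for Has2, Gdf9 with Ldha −0.56 (0.0019) and Gdf9 with Sqle −0.47 (0.018). Bmp15 with Cyp51, of cholesterol synthesis, was −0.38 (0.098) and Gdf9 with Ptgs2, of expansion, 0.17 (0.58), and neither passed. Without centring 7 of the 8 passed, and Gdf9 with Sqle did not (r = −0.38, adjusted p = 0.051). Ligands with their receptors showed no relation that passed: Gdf9 with Tgfbr1 was −0.41 (adjusted p = 0.051), Bmp15 with Bmpr1b −0.33 (0.17), Gdf9 with Bmpr2 −0.11 (0.63), Kit with Kitl 0.13 (0.60), Fgf8 with Fgfr1 0.04 (0.84) and the connexins Gja4 with Gja1 0.15 (0.60). With the cumulus receptor gene Npr2, Pde3a, whose product breaks down cAMP in the oocyte, was −0.14 (0.59) and Gpr3, a receptor that keeps oocyte cAMP high, 0.23 (0.24). Gdf9 and Bmp15 with Npr2 were −0.30 (0.18) and −0.24 (0.26), with Kitl −0.01 (0.94) and −0.07 (0.79), Bmp15 with Bmpr2 −0.21 (0.42) and Bmp6 with Bmpr1b −0.06 (0.79). Within the 16 complexes below 0 and the 23 above 0 on cumulus PC1, none of the 8 pairs passed (16 relations, adjusted p of 0.39 or more), with r for Gdf9 and Amh of 0.60 and 0.37. The first of these rested on 2 complexes, with a rho of 0.07 and an r of −0.47 without them.

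**Figure D4:**
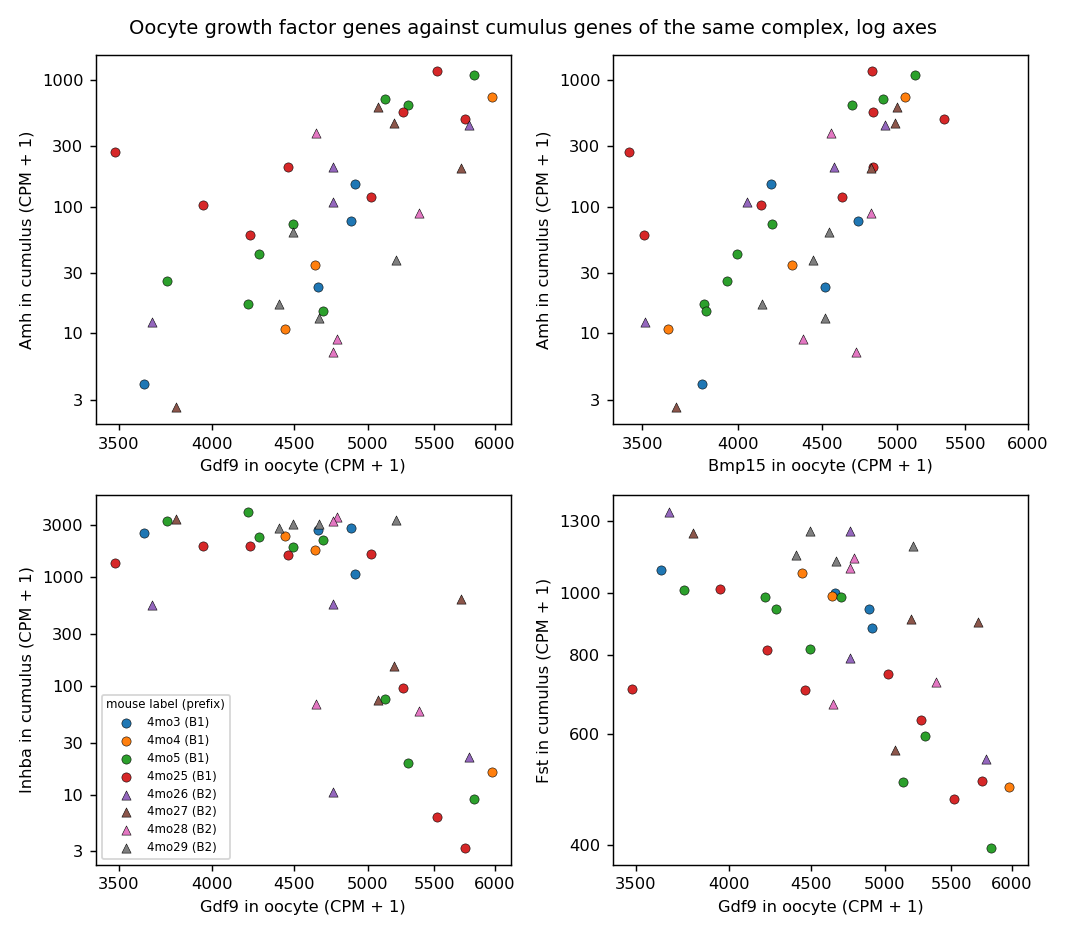
Amh against Gdf9, Amh against Bmp15, Inhba against Gdf9 and Fst against Gdf9, with the oocyte gene on the horizontal and the cumulus gene on the vertical axis (CPM + 1, log scales), 1 point per complex for 39 complexes, coloured by mouse label. Amh rises with both oocyte genes (r = 0.73 and 0.76 after centring on the mouse), and Inhba and Fst fall with Gdf9 (−0.72 and −0.73).

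Whether these relations held outside the 4-month mice was examined after their values had been seen. The 88 other complexes were placed on the 4-month axes. Over all 88, oocyte PC2 had r = −0.61 with cumulus PC2 and 0.59 with cumulus PC3 (permutation adjusted p = 4.5e-05 each over 9 relations). Oocyte PC3 with cumulus PC3 was −0.32 (adjusted p = 0.018) and oocyte PC2 with cumulus PC1 −0.45 (adjusted p = 0.0031). Only the last of these was computed by group. Oocyte PC2 with cumulus PC1 had r = −0.77 at 2 months (n = 24, permutation adjusted p = 0.014 over 4 groups, rho = −0.57, and r = −0.46 without the 2 complexes farthest from the median), −0.73 at 9 months (n = 16, adjusted p = 0.028, rho = −0.41, permutation p = 0.18, and r = −0.37 without 2 complexes) and −0.90 at 14 months (n = 16, adjusted p = 0.024, rho = −0.79, and r = −0.87 without 2 complexes), all after hyperovulation. At 2 months without hyperovulation it was 0.03 (n = 32, permutation p = 0.87), a value for this pair of axes only. The difference between 4 months and that group, −0.83, passed when the group was permuted over mice (exact p = 0.0033, adjusted p = 0.013), and the differences from the other ages did not (exact p of 0.51 or more). That group and the 4-month mice also differed in age. The 2 groups at 2 months, with and without hyperovulation, were not tested against each other.

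The share of called genes that recurred also differed between hyperovulated and other complexes, groups that differed in number and age as well. Of the 112 and 354 oocyte genes called along cumulus PC1, 378 (81.1%) had the same sign at an unadjusted p under 0.05 in the 56 hyperovulated complexes of other ages, against 13.9% of genes not called, and 18 (3.86%, against 2.16%) in the 32 complexes without hyperovulation. Of the 2759 cumulus genes called along oocyte PC2 it was 1675 (60.7%, against 11.7%) and 315 (11.4%, against 5.18%). All 5 leading falls in oocytes, Pde7b to Abi2, passed along the axis in the hyperovulated complexes of other ages, and none of the 5 leading rises did. Without hyperovulation, Pde7b (−1.98 log2 per SD, adjusted p = 1.5e-09), C130074G19Rik (−0.93, adjusted p = 9.8e-05) and Grem1 (1.15, adjusted p = 0.0043) still followed cumulus PC1. In the hyperovulated complexes of other ages their changes were −0.78, −0.83 and 0.19, so these genes did not follow the division.

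Gdf9 with Amh had r = 0.59 at 2 months, 0.69 at 9 months, 0.46 at 14 months and 0.72 without hyperovulation. It did not pass at 14 months (permutation adjusted p = 0.22 over 32 relations). Gdf9 with Has2 also kept its sign in all 4 groups, at −0.55, −0.70, −0.80 and −0.53, but did not pass at 2 months after hyperovulation (permutation adjusted p = 0.052). Bmp15 with Amh was 0.39, 0.73, 0.34 and 0.68, in the same order of groups, and did not pass at 2 or 14 months after hyperovulation (permutation adjusted p = 0.085 and 0.34 over 32 relations). Gdf9 with Inhba was −0.48, −0.53, −0.62 and −0.06 and passed in no group (permutation adjusted p of 0.0615 or more). Gdf9 with Fst was −0.63, −0.70, −0.72 and −0.26, and did not pass at 14 months (adjusted p = 0.069) or without hyperovulation (0.25). The pairs with metabolic genes changed sign between groups: Gdf9 with Ldha was −0.35, −0.55, −0.25 and 0.32, Bmp15 with Pfkp −0.38, −0.61, −0.59 and 0.15, and Gdf9 with Sqle −0.34, 0.34, −0.03 and 0.27, none with an adjusted p under 0.05. Inhba itself was lower in the cumulus cells of mice without hyperovulation, at a median of 72.3 CPM against 1628 CPM at 4 months. None of the 8 pairs differed between 4 months and the mice without hyperovulation after adjustment (exact permutation, adjusted p of 0.066 or more), and 5 had an unadjusted p between 0.021 and 0.041.

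**Figure D5:**
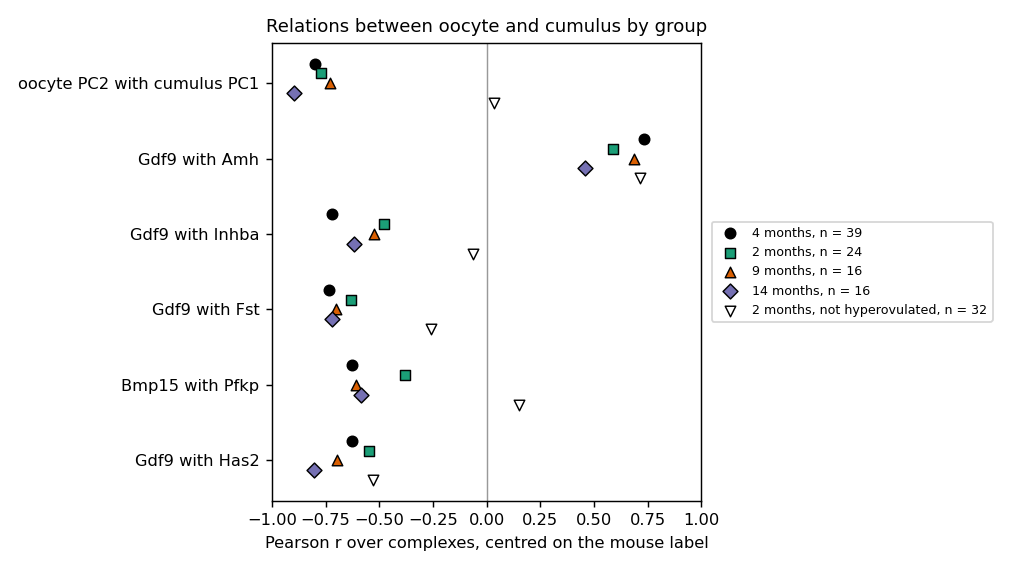
Pearson r over complexes after centring on the mouse label (horizontal axis) for oocyte PC2 with cumulus PC1 and for 5 pairs of an oocyte and a cumulus gene (rows), with 1 symbol per group of mice. The 4 hyperovulated groups lie between −0.90 and −0.73 in the top row and the mice without hyperovulation at 0.03, while for Gdf9 with Amh all 5 groups lie between 0.46 and 0.73.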

How the data were processed

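Single oocytes and pools of their surrounding cumulus cells were sequenced by RamDA-seq, a full-length total RNA method without molecular identifiers. The authors mapped reads with HISAT2 (2.0.5) to GRCm38 and deposited estimated counts per GENCODE vM15 gene from featureCounts (1.5.1), with multi-mapped reads counted, and 34.9% of the nonzero values used here were not whole; these were rounded for the count tests. The authors also deposited RPKM values. Strand handling is not given in the sources used here. The first experiment was not analysed here.

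Oocyte and cumulus libraries were matched by complex label, and mouse labels were terms or blocks in the main fits over complexes. Exceptions were the alternatives described as without the mouse term or centring, the fit with the label prefix, and the relations between mouse means. A median of 19.1% of a gene's variance lay between mouse labels in oocytes and 26.3% in cumulus cells, against 18.4% with no mouse difference. The same-gene test was a linear model of log2 CPM (TMM library sizes, prior count 2) for genes detected in 20 or more oocyte and 20 or more cumulus libraries. PCA was on log10 RPKM, as in the study, and the pseudocount of 1 and the limit to genes seen in 5 or more libraries were chosen here. Genes along an axis were tested with edgeR 4.0.16 (quasi-likelihood, R 4.3.3) under the same detection filter, and DESeq2 1.42.0 as an alternative. Relations over complexes were tested two-sided with 100000 permutations of the pairing within mice (smallest p 1e-05), and those over 8 mice with exact permutation. The p-values of each family of tests were adjusted by Benjamini-Hochberg and read at 5%. Complexes of a mouse are not separate animals, so p-values measure the spread between complexes.

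Members, gene lists and tests were chosen with earlier results of these data known. Axis and gene-pair relations in other groups, those within sides of cumulus PC1 and those without the 4 oocytes apart were added after seeing the data. Named genes were, for the same-gene test, those called with a mean of at least 8 CPM in both cells (up to 10 in each direction). In each axis fit they were the 5 largest slopes in each direction at that level. All genes of the 24 pairs were also named. From the lists some of the called members were named, or the largest partial r where none was called. Genes called without the mouse term and single complexes were named after their values were seen. Coordinates are from GENCODE vM21 (GRCm38). Scripts were tested on simulated data. Depth limits low genes: 1 count is near 1 CPM in a cumulus library.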

Additional observations from a re-analysis of the deposited data

Results flagged for a closer look

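In 34 sets of scores, each a mouse's complexes on 1 axis, 3 complexes lay far from the others of their mouse, where chance alone puts about 1 in 20. The oocyte of complex B2E07 (mouse 4mo29) scored 12.1 on oocyte PC1 and is 1 of the 4 oocytes that stood apart. The cumulus cells of B2E06 (4mo27) scored 21.4 and those of B1E04 (4mo5) −15.8 on cumulus PC2.

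The r of oocyte PC2 with cumulus PC1 at 4 months minus that at 2 months without hyperovulation was −0.83, a difference that passed an exact permutation of the group over mice (adjusted p = 0.013). The groups also differed in age, and the axes were set by the 4-month complexes. The value is for this pair of axes only.

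The cumulus library of mouse 4mo4 without an oocyte library (920568 counts), which no comparison used, held 273.7 CPM of Inhba and 646.9 CPM of Amh, both within the range of the 39 paired libraries.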

How the results depend on the processing

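The relation of oocyte PC2 with cumulus PC1 kept its direction and its side of the threshold under all alternatives of processing, blocking and left-out complexes. Over mouse means its r was −0.43 (exact permutation p = 0.28). Within the lower 16 and upper 23 complexes on cumulus PC1 the centred r was −0.66 and −0.04 (permutation p = 0.033 and 0.88). Same-gene calls numbered 15 without the mouse block, 10 with the label prefix as the block, 2 with marker covariates, 11 (10 positive) by negative binomial regression, and 1 to 4 when 1 mouse was left out (fewest without 4mo25). The own-complex difference was 0.0135 (p = 0.15) for genes of at least 10 CPM and 0.0120 to 0.0157 with 1 mouse left out, with p = 0.12 without 4mo25 and 0.051 without 4mo27. Axis relations that passed numbered 2 on TMM log2 CPM, 2 without the 4 oocytes apart, and 2 to 5 with 1 mouse left out, and oocyte PC1 with cumulus PC3 changed sign, to 0.152, without the block. Cross-gene pairs numbered 7 without the block and 7 to 10 with 1 mouse left out. Oocyte genes along cumulus PC1 numbered 736 without the 4 oocytes apart and 118 to 510 with 1 mouse left out, including 308 without 4mo27. Oocyte genes along cumulus PC2 numbered 1 without the block, 50 by DESeq2, 1 with all genes that had a count, 3 with edgeR's filterByExpr and 0 to 5 with 1 mouse left out. Cumulus genes along oocyte PC1 numbered 1 by DESeq2, and those along oocyte PC2 1507 to 2753 with 1 mouse left out. Relations between mouse means numbered 0 to 2. The cause of these shifts was not tested. Of the alternative values for results that answer a comparison, 99 stayed on the same side or within 1.5 times, 28 moved further and 3 lost significance.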
